A study of Mus musculus with 18 samples.

Results

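The proneural and neuronal bHLH factors examined here were 9 transcription factor genes, Neurog1, Neurog2, Neurog3, Neurod1, Neurod2, Neurod4, Neurod6, Atoh1 and Olig2. They were taken by symbol from a table of 34244 named genes and were selected on earlier results of the same embryos, in which some of them differed between genotypes. All 9 were found and all 9 passed the filter of at least 0.1 FPKM (fragments per kilobase of transcript, scaled to library size) in at least 3 of 9 embryos, which 19397 genes passed. The differences between Dnmt3b-/- embryos and the other genotypes are therefore a description of these factors, and no p-value is given for them. The p-values given for the factors between Dnmt3bCI/CI and Dnmt3b+/+ come from the same embryos and are descriptive too.

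Each of the 9 RNA-seq libraries came from 1 whole E11.5 embryo of the FVB strain. There were 3 wild-type (Dnmt3b+/+), 3 null (Dnmt3b-/-) and 3 catalytically inactive (Dnmt3bCI/CI) embryos. Each p-value sets a difference against the spread between embryos within genotypes, estimated over all 3 genotypes together. Dnmt3b encodes a de novo DNA methyltransferase. The Dnmt3b-/- embryos carried a constitutive knockout allele derived from a floxed allele, present in all tissues. The Dnmt3bCI/CI embryos expressed from the endogenous locus a protein whose proline and cysteine at the catalytic site were replaced by valine and aspartate. All embryos came from natural matings of heterozygous mice, and only live embryos were used. The design asks which genes need Dnmt3b, and which of those also need its catalytic activity.

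Factors of this class bind DNA as dimers with broadly expressed E proteins at E-boxes, with the sequence CANNTG. Neurogenins act early, in dividing progenitors, where they commit cells to a neuronal fate and switch on Notch ligands and NeuroD genes. NeuroD factors act later, as neurons leave the cell cycle and differentiate, while Id and Hes/Hey proteins hold the class in check. Atoh1 acts in the dorsal hindbrain and dorsal spinal cord, Neurog3 in the endocrine pancreas, and Olig2 in motor neuron and oligodendrocyte progenitors.

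The totals behind the FPKM values were 38451729 to 49808777 reads per library. The 3 libraries labelled Dnmt3b-/- held 2.45, 3.12 and 3.33 FPKM of Dnmt3b, no less than the 2.25, 1.62 and 2.04 FPKM of Dnmt3b+/+. The whole-gene value does not resolve a deleted part of the gene, so every direction below rests on the labels. A pair of embryos stood apart. In Dnmt3b+/+ embryo 2, Alb and Afp, which mark hepatocytes, were at 0.103 and 0.119 FPKM against 43.7 to 93.3 FPKM in the other 2 embryos of the group, and the mean level of 20 pan-neuronal genes was the highest of all 9 embryos. In Dnmt3bCI/CI embryo 2, Emx1 and Tbr1, which mark the dorsal telencephalon, were at 0.0212 and 0.0126 FPKM against 1.18 to 4.56 FPKM in the other 8 embryos. Several differences are given below with and without these embryos. In whole embryos, fewer cells of a type and less RNA per cell cannot be told apart.

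In Dnmt3b+/+ embryos the 9 factors covered a wide range of levels. Neurog2 was the most abundant, with 17.1 ± 2.14 FPKM (SD, n = 3), and its range did not overlap that of the next factor. Neurod2 (6.89 ± 3.06 FPKM), Neurod6 (4.20 ± 1.64), Neurod1 (3.75 ± 0.410), Neurog1 (3.57 ± 0.989) and Olig2 (2.49 ± 0.627) followed, and each of these overlapped its neighbour in this order. Neurod4 (0.478 ± 0.111 FPKM), Atoh1 (0.266 ± 0.287) and Neurog3 (0.192 ± 0.0766) were below all of them. The range of Atoh1 overlapped those of Neurod4 and Neurog3, which did not overlap each other. Atoh1 and Neurog3 rested on 6 to 63 and 7 to 40 reads per embryo, so their levels are imprecise. In the embryos labelled Dnmt3b-/-, Neurod2 was the sixth in order and Neurod6 the last, whereas the order of the 9 factors in Dnmt3bCI/CI was that of Dnmt3b+/+.

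**Figure D1:**
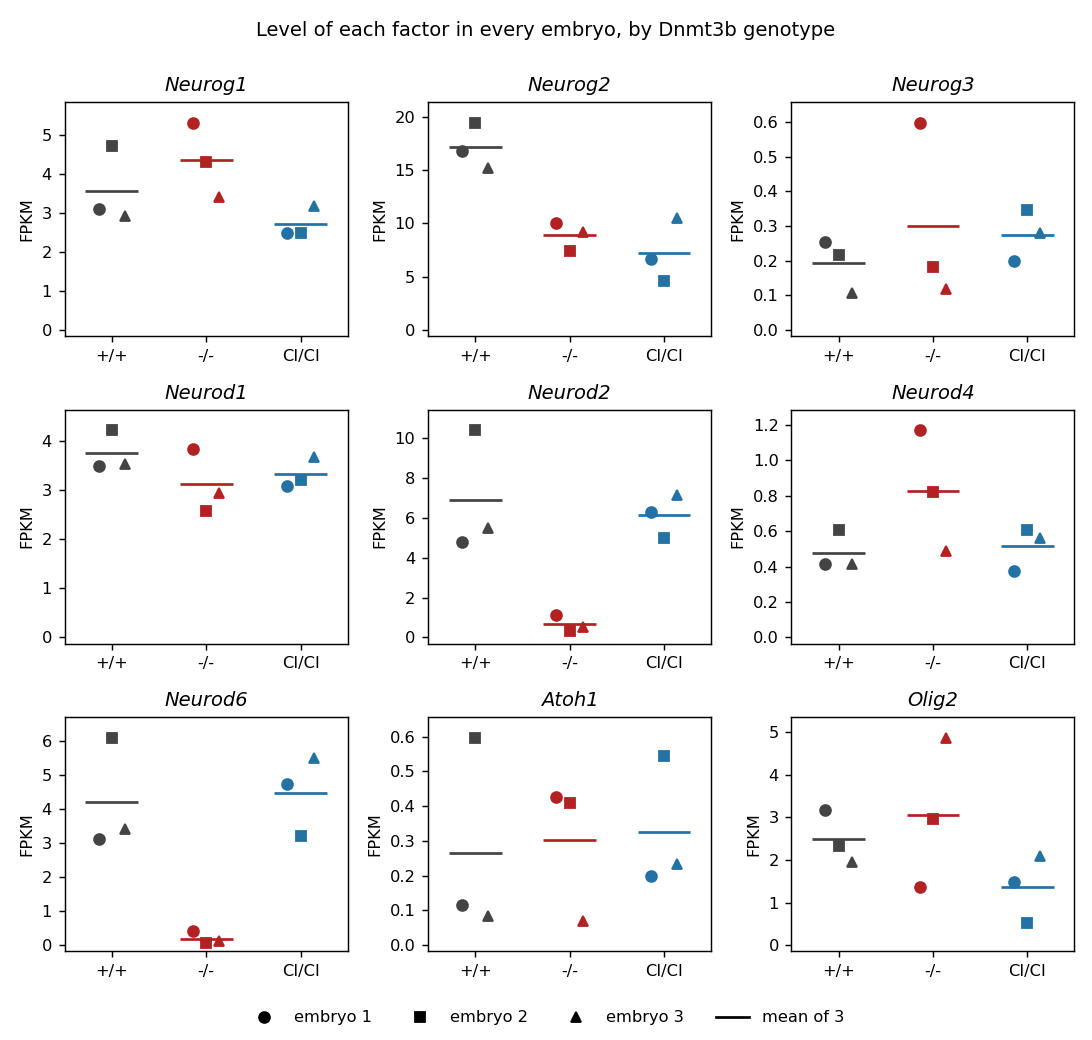
FPKM of each of the 9 factors (vertical axis, linear, its own scale in each panel) in every embryo, by Dnmt3b genotype (horizontal axis), with a line at the mean of 3 embryos. Neurod2 and Neurod6 sit near the bottom of the axis in all 3 Dnmt3b-/- embryos, at 0.329 to 1.14 and 0.0547 to 0.408 FPKM, and Neurog2 is lower in all 6 mutant embryos (4.57 to 10.5 FPKM) than in Dnmt3b+/+ (15.2 to 19.5 FPKM).

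All 9 genes have their whole coding sequence in 1 exon of the GENCODE M21 annotation, of 642 bp in Neurog3 to 1149 bp in Neurod2. The sequences before the starts of Neurod2, Neurod6 and Neurog2 are shown because these are the 3 factors whose Dnmt3b+/+ and Dnmt3b-/- embryos did not overlap, which held for 38.9% of all genes tested. Each is the reference sequence of 250 bases that ends at the RefSeq start, from GRCm38.p6 and on the strand of the gene, and the FVB sequence may differ. Capitals mark E-boxes. Neurod2 lies at chr11:98325415-98329648, on the minus strand, and its sequence at chr11:98329646-98329895. Neurod6 lies at chr6:55677822-55681263, on the minus strand, with the sequence at chr6:55681264-55681513. Neurog2 lies at chr3:127633135-127635631, on the plus strand, with the sequence at chr3:127632886-127633135.
Neurod2: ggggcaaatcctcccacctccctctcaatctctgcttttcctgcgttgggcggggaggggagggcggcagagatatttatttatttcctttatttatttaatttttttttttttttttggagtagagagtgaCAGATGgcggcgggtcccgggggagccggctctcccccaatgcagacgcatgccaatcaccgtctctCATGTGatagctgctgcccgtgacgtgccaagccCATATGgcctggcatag
Neurod6: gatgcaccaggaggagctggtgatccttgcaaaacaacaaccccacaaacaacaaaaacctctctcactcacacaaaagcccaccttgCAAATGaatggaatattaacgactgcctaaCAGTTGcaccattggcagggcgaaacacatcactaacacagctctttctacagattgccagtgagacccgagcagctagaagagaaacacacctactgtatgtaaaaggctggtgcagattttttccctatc
Neurog2: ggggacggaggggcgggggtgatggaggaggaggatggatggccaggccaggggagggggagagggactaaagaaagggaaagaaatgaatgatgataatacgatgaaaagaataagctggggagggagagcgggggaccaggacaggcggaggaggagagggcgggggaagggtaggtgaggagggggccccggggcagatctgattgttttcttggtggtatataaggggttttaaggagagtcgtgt

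The stretch before Neurod2 held 3 E-boxes, a CAGATG that begins 118 bases before the start, a CATGTG at 51 bases and a CATATG at 17 bases. The stretch before Neurod6 held 2, a CAAATG at 162 bases and a CAGTTG at 132 bases before the start, and the stretch before Neurog2 held 0. The motif reads the same on both strands. In windows that run 50 bases further, into the transcript, 6 of the 10 windows of the 9 factors held an E-box (Neurod4 has 2 starts), against 72.3% of 32851 RefSeq windows of the same length. CAGATG or its complement CATCTG, a form of the E-box, was present in 1 of the 10 windows, that of Neurod2, against 17.2% of all. CG dinucleotides, at which Dnmt3b methylates DNA, numbered 16 in the window of Neurod2, 3 in that of Neurod6 and 10 in that of Neurog2, with 3 to 32 over the 10 windows and a median of 7 over all. Methylation at these windows was not analysed here.

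The differentiation factors Neurod2 and Neurod6 were the ones that separated the embryos labelled Dnmt3b-/- from both other genotypes. Neurod2, which acts in maturing excitatory neurons, was measured at 4.78, 10.4 and 5.49 FPKM in Dnmt3b+/+, at 1.14, 0.329 and 0.502 FPKM in Dnmt3b-/-, and at 6.29, 5.0 and 7.13 FPKM in Dnmt3bCI/CI. All 3 Dnmt3b-/- embryos lay below all 6 others. Between Dnmt3b-/- and Dnmt3bCI/CI, 46.2% of all genes did not overlap. The mean was 10.5-fold lower than in Dnmt3b+/+, and the difference on the log2(FPKM + 0.1) scale was −3.27 (SE 0.40) from Dnmt3b+/+ and −3.17 (SE 0.40) from Dnmt3bCI/CI.

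Neurod6, its close relative and often its companion in the same neurons, was measured at 3.10, 6.08 and 3.42 FPKM in Dnmt3b+/+. In Dnmt3b-/- the values were 0.408, 0.0547 and 0.115 FPKM, which correspond to 35, 5 and 10 reads, and in Dnmt3bCI/CI they were 4.72, 3.19 and 5.48 FPKM. Again the 3 Dnmt3b-/- embryos were the 3 lowest, with no overlap. The mean was 21.8-fold lower than in Dnmt3b+/+ and the log2 difference −4.00 (SE 0.44), and against Dnmt3bCI/CI it was −4.12 (SE 0.44). Without Dnmt3b+/+ embryo 2 the differences from Dnmt3b+/+ were −2.93 for Neurod2 and −3.71 for Neurod6.

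Across all 19397 genes tested, limma called 3.38% lower and 1.07% higher in Dnmt3b-/- than in Dnmt3b+/+ (called: at least 2-fold, with an adjusted p under 0.05 by Benjamini-Hochberg). Of the 9 factors, Neurod2 and Neurod6 met this rule, both lower, and 0 were higher. Against Dnmt3bCI/CI the shares of all genes were 4.32% lower and 1.1% higher, and the same 2 factors met the rule. Since both comparisons use the same Dnmt3b-/- embryos, and since the factors were picked with these values known, nothing is read from those counts. Of the factors that did not meet the rule against Dnmt3b+/+, Neurog2 (−0.95, SE 0.26) and Neurod4 (0.63, SE 0.29) came nearest to 2-fold. Against Dnmt3bCI/CI, Olig2 (1.13, SE 0.53) was past 2-fold without meeting the rule on p, and under 2-fold (0.60) without Dnmt3bCI/CI embryo 2.

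**Figure D2:**
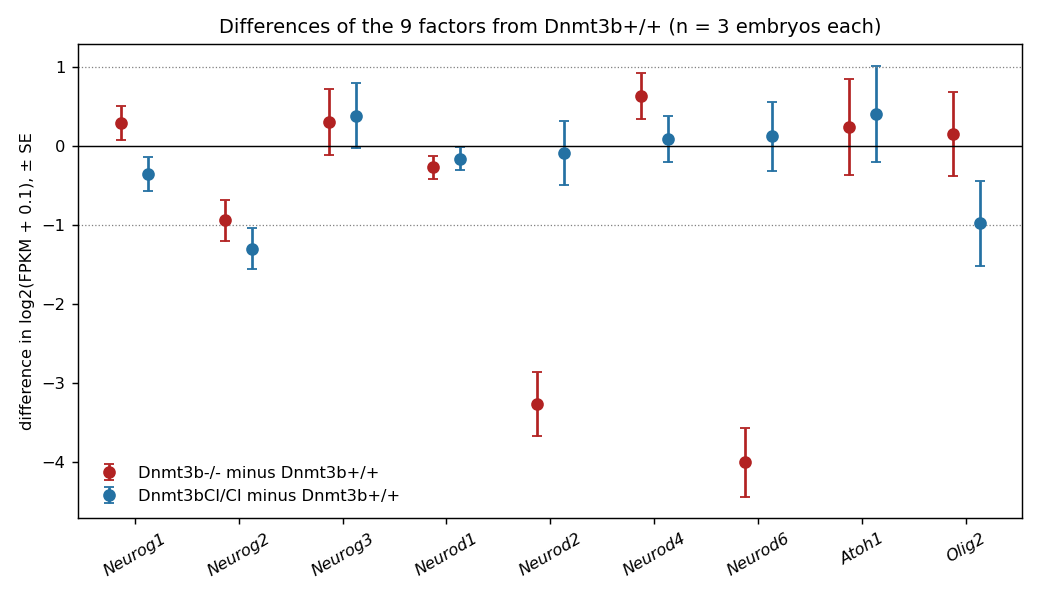
Difference in mean log2(FPKM + 0.1) from Dnmt3b+/+ (vertical axis) for each factor in Dnmt3b-/- (red) and Dnmt3bCI/CI (blue), with bars of ± 1 SE from the fit over 9 embryos and dotted lines at 2-fold. Neurod2 and Neurod6 lie at −3.27 and −4.00 in Dnmt3b-/- and near 0 in Dnmt3bCI/CI, whereas Neurog2 is at −0.95 and −1.30.

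Neurod2 and Neurod6 also ranked the 3 embryos of each genotype in the same order. The ratio of Neurod2 to Neurod6 in FPKM was 1.54, 1.71 and 1.61 in Dnmt3b+/+ and 1.33, 1.57 and 1.30 in Dnmt3bCI/CI. In Dnmt3b-/- it was 2.80, 6.02 and 4.38, higher in all 3 embryos, so Neurod6 was further from its level in the other genotypes than Neurod2, although the last 2 of these ratios rest on 5 and 10 reads of Neurod6. Together the pair made up 66.8% to 77.3% of the summed FPKM of the 4 NeuroD genes in Dnmt3b+/+, 68.2% to 76.1% in Dnmt3bCI/CI and 10.1% to 23.7% in Dnmt3b-/-.

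The differences of the other NeuroD genes were smaller or of the opposite sign. Neurod1, which drives neuronal and pancreatic endocrine differentiation, was at 3.50, 4.22 and 3.53 FPKM in Dnmt3b+/+, 3.83, 2.59 and 2.94 FPKM in Dnmt3b-/- and 3.09, 3.22 and 3.68 FPKM in Dnmt3bCI/CI. The 3 groups overlapped, with log2 differences from Dnmt3b+/+ of −0.27 (SE 0.14) and −0.17 (SE 0.14). The span of the Neurod1 gene overlaps that of Cerkl on the same strand and of Gm26755 on the opposite one. Overlap of exons was not examined, so some reads of Neurod1 may belong to them.

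Neurod4, a factor of early neurons, was at 0.415, 0.606 and 0.412 FPKM in Dnmt3b+/+, 1.17, 0.823 and 0.487 FPKM in Dnmt3b-/- and 0.373, 0.608 and 0.560 FPKM in Dnmt3bCI/CI. Of the Dnmt3b-/- embryos, 1 and 2 lay above all others and 3 among them. The log2 difference from Dnmt3b+/+ was 0.63 (SE 0.29), of the opposite sign to those of Neurod2 and Neurod6.

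Among the neurogenins, Neurog2 was the one whose mutant embryos did not overlap Dnmt3b+/+. Neurog2, the main proneural factor of the dorsal telencephalon and of much of the spinal cord, was at 16.7, 19.5 and 15.2 FPKM in Dnmt3b+/+. It was at 10.0, 7.40 and 9.20 FPKM in Dnmt3b-/- and at 6.67, 4.57 and 10.5 FPKM in Dnmt3bCI/CI. Both mutant groups lay below Dnmt3b+/+ without overlap and overlapped each other. Of all genes, 13.2% did not overlap between Dnmt3bCI/CI and Dnmt3b+/+. The mean was 1.93-fold lower in Dnmt3b-/- and 2.36-fold lower in Dnmt3bCI/CI than in Dnmt3b+/+.

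Neurog1, which shares targets with Neurog2 and is prominent in cranial and spinal sensory ganglia, was at 3.10, 4.70 and 2.90 FPKM in Dnmt3b+/+. The values were 5.31, 4.30 and 3.41 FPKM in Dnmt3b-/- and 2.47, 2.48 and 3.18 FPKM in Dnmt3bCI/CI. Every Dnmt3b-/- embryo was above every Dnmt3bCI/CI embryo, and both groups overlapped Dnmt3b+/+. Of all genes, 46.2% did not overlap between Dnmt3b-/- and Dnmt3bCI/CI. The ratio of Neurog2 to Neurog1 in FPKM was therefore 5.41, 4.14 and 5.25 in Dnmt3b+/+, against 1.89, 1.72 and 2.70 in Dnmt3b-/- and 2.70, 1.84 and 3.31 in Dnmt3bCI/CI, with no overlap between Dnmt3b+/+ and either mutant group. How often ratios of other genes do not overlap was not examined. Since Neurog2 made up most of the sum, the 3 neurogenins together reached 18.2 to 24.4 FPKM in Dnmt3b+/+, 11.9 to 16.0 FPKM in Dnmt3b-/- and 7.40 to 13.98 FPKM in Dnmt3bCI/CI.

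The genotypes overlapped in Neurog3, Atoh1 and Olig2. Neurog3 ranged from 0.107 to 0.254 FPKM in Dnmt3b+/+, 0.118 to 0.599 FPKM in Dnmt3b-/- and 0.200 to 0.345 FPKM in Dnmt3bCI/CI, and it overlaps Fam241b on the opposite strand. Atoh1 was at 0.116, 0.596 and 0.0841 FPKM in Dnmt3b+/+, 0.426, 0.410 and 0.0698 FPKM in Dnmt3b-/- and 0.200, 0.545 and 0.233 FPKM in Dnmt3bCI/CI, so that embryos of 1 genotype differed more than the genotypes did.

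Olig2 was at 3.18, 2.33 and 1.96 FPKM in Dnmt3b+/+, 1.37, 2.96 and 4.87 FPKM in Dnmt3b-/- and 1.47, 0.512 and 2.10 FPKM in Dnmt3bCI/CI. The Dnmt3b-/- embryos thus held both a value under and a value over the whole Dnmt3b+/+ range. The lowest value of all was that of Dnmt3bCI/CI embryo 2. Against Dnmt3bCI/CI the log2 difference of Dnmt3b-/- was 1.13 (SE 0.53), and it ranged from 0.60 without Dnmt3bCI/CI embryo 2 to 1.60 without Dnmt3b-/- embryo 1.

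The comparison of Dnmt3bCI/CI with Dnmt3b+/+ asks whether loss of catalytic activity alone alters these genes, and it shares its Dnmt3b+/+ embryos with the comparison above. The factors were selected on earlier results of these same embryos. Counts, p-values and intervals given for them in this comparison are therefore a description, and nothing is read from whether they pass a threshold. limma called 0.129% of all genes higher and 0% lower. Of the 9 factors 0 were called, and 1, Neurog2, was lower at an unadjusted p under 0.05, as were 2.55% of all genes, with 2.7% higher. For Neurog2 the log2 difference was −1.30 (SE 0.26, 95% interval −1.90 to −0.71, adjusted p = 0.292 with limma), lower in 3 of 3 embryos. The difference was −1.61 without Dnmt3bCI/CI embryo 3 and −1.02 without Dnmt3bCI/CI embryo 2, which holds few dorsal telencephalic transcripts.

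Neurod2 and Neurod6 differed by −0.09 (95% interval −1.01 to 0.82, adjusted p = 0.984) and 0.12 (95% interval −0.88 to 1.11, adjusted p = 0.980) on the log2 scale between Dnmt3bCI/CI and Dnmt3b+/+. A 2-fold difference is at the edge of these intervals, which come from the same embryos on which the factors were selected. For Olig2 the difference was −0.98 (95% interval −2.20 to 0.23, adjusted p = 0.949), and −0.45 without Dnmt3bCI/CI embryo 2. The other 5 factors lay between −0.36 and 0.40, with adjusted p from 0.949 to 0.977. The upper end was Atoh1, which was at 1.01 without Dnmt3b+/+ embryo 2, at 0.046 without Dnmt3b+/+ embryo 3 and at 0.061 without Dnmt3bCI/CI embryo 2. In Dnmt3bCI/CI embryo 2, Neurod2 and Neurod6 were at 5.0 and 3.19 FPKM, the lowest of that group but within the range of Dnmt3b+/+, while Emx1 and Tbr1 were near 0.

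The 3 E proteins, the dimer partners of these factors, differed little in Dnmt3b-/-. Tcf3 was higher in 3 of 3 embryos, by 0.30 on the log2 scale (SE 0.07, adjusted p = 0.0184), and so was Tcf12, by 0.20 (SE 0.05, adjusted p = 0.0192). Tcf4 was lower in 3 of 3, with 4.90 to 5.08 FPKM against 6.37 to 6.60 FPKM, a log2 difference of −0.36 (SE 0.05, adjusted p = 0.00238). None of the 3 reached 2-fold. At this threshold of p alone, 9.41% of all genes were higher and 16.4% lower.

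Of the 10 antagonists, 0 were called at 2-fold, and 3 were higher and 1 lower at an adjusted p under 0.05. Id1, Id2 and Id3, which bind E proteins and keep them from DNA, were the 3 that rose. Id1 was at 35.9 to 42.2 FPKM in Dnmt3b-/- against 22.6 to 24.5 FPKM in Dnmt3b+/+ (log2 difference 0.68, SE 0.07, adjusted p = 0.00088). Id2 was at 17.5 to 18.7 FPKM against 11.0 to 12.5 FPKM (0.62, SE 0.06, adjusted p = 0.000479), and Id3 differed by 0.52 (SE 0.13, adjusted p = 0.0194). Id4, which is abundant in neural progenitors, differed by −0.62 (SE 0.24, adjusted p = 0.0898). Hey2 fell by 0.68 on the log2 scale (SE 0.10, adjusted p = 0.00313), while the Notch effectors Hes1 and Hes5 differed by −0.09 and −0.04, with adjusted p of 0.485 and 0.925.

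**Figure D3:**
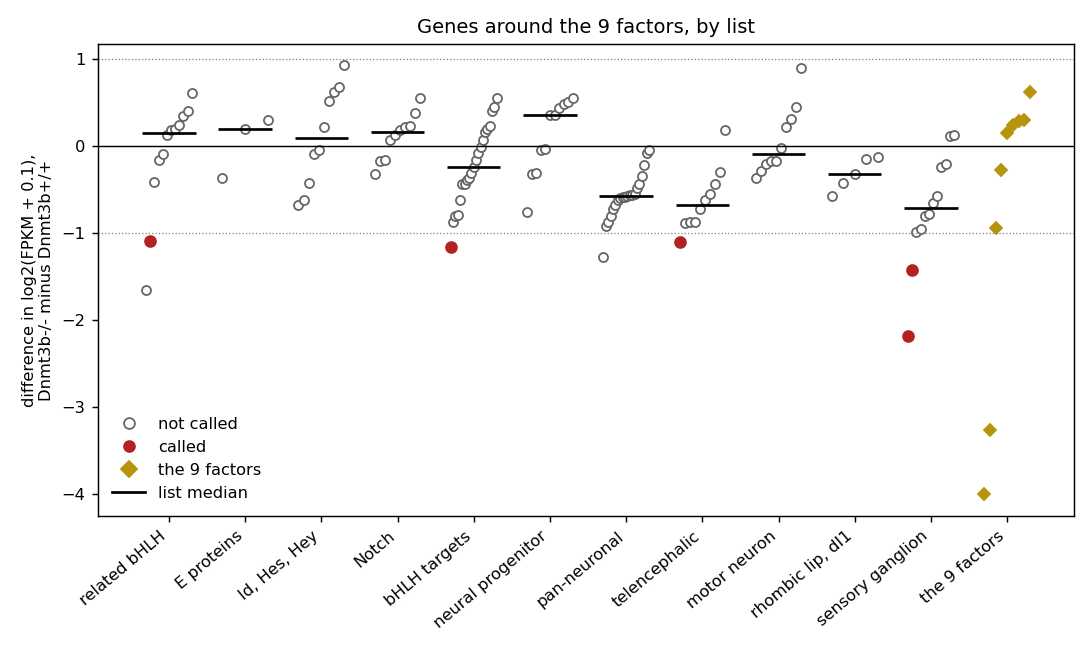
Difference in mean log2(FPKM + 0.1), Dnmt3b-/- minus Dnmt3b+/+ (vertical axis), for each tested gene of 11 neural lists (horizontal axis), with called genes in red, a black line at each list's median, and the 9 factors as diamonds. The 5 called genes lie below the dotted line at 2-fold, and the pan-neuronal genes all lie below 0 around a median of −0.58.

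Over the 11 neural lists and a list of pancreatic endocrine genes, which hold 120 genes beside the 9 factors, 115 were tested in Dnmt3b-/- against Dnmt3b+/+, and 5 were called lower and 0 higher, a share of 4.35% lower against 3.38% of all genes. They included Runx3 (−1.43, SE 0.38, adjusted p = 0.028), a transcription factor of sensory neurons, Cbfa2t3 (−1.16, SE 0.31, adjusted p = 0.028), a transcriptional corepressor, Bcl11b (−1.10, SE 0.14, adjusted p = 0.00174), a factor of neurons and other tissues, and Bhlhe22 (−1.09, SE 0.30, adjusted p = 0.0307), a bHLH factor of the Olig family. The count depends on single embryos. It was 19, all lower, without Dnmt3b-/- embryo 1, whose pan-neuronal level was the highest of its group, and 2 lower and 2 higher without Dnmt3b+/+ embryo 2. In Dnmt3bCI/CI against Dnmt3b+/+, limma called 0 of the 115. At an unadjusted p under 0.05, 1 of the 115 was higher and 18 were lower, against 524 and 495 of all 19397 genes (2.7% and 2.55%). The 18 numbered 11 to 25 when single embryos were left out, and were 14 without Dnmt3bCI/CI embryo 2 and 11 without Dnmt3b+/+ embryo 2.

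Other bHLH factors of neurons and progenitors included 1 call, Bhlhe22, among 12 tested. Atoh7, a factor of retinal ganglion cells, was at 0.188 to 0.385 FPKM in Dnmt3b-/- and 0.861 to 1.17 FPKM in Dnmt3b+/+ (−1.65, SE 0.77, adjusted p = 0.147). The median log2 difference of the 12 was 0.16, against −0.07 over all genes.

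Of the 21 known targets of neurogenins and NeuroD factors, 1 was called lower, Cbfa2t3, and 0 higher, with a median difference of −0.23. Cbfa2t3 was at 2.52, 1.55 and 1.10 FPKM in Dnmt3b-/- and at 2.82, 5.70 and 3.29 FPKM in Dnmt3b+/+. It was not called when Dnmt3b+/+ embryo 2 was left out. Dcx, a microtubule protein of migrating neurons, differed by −0.81 (SE 0.28, adjusted p = 0.0648). Of the 10 Notch pathway genes, 0 were called at 2-fold. Notch3 was higher (0.38, SE 0.05, adjusted p = 0.00173) and Notch2 lower (−0.32, SE 0.07, adjusted p = 0.0113), and the median was 0.16.

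Neural progenitor genes and neuronal genes had medians of opposite sign. Of 11 progenitor genes 0 were called at 2-fold in Dnmt3b-/- against Dnmt3b+/+, and the median difference was 0.35. The genes lay on both sides of 0, from −0.76 to 0.55. Their mean log2 level per embryo was 3.51 to 3.89 in Dnmt3b+/+ and 3.57 to 3.90 in Dnmt3b-/-, and these ranges overlapped. Prom1 (0.55, adjusted p = 0.0104) and Nes (0.51, adjusted p = 0.0385) were higher and Slc1a3 (−0.76, adjusted p = 0.0191) lower at the threshold of p alone. Against Dnmt3bCI/CI, 5 of the 115 tested genes of the neural and pancreatic lists were called higher and 5 (4.35%) lower in Dnmt3b-/-. Of all genes, 1.1% were called higher and 4.32% lower, so the lower share was near that of all genes. The lower ones included the neuronal cytoskeletal genes Mapt (−1.48, adjusted p = 0.0409) and Nefh (−1.05, adjusted p = 0.0373, named after its values were seen). Among the higher ones, Sox3 (1.68, adjusted p = 0.00634) and Sox1 (1.51, adjusted p = 0.00505, named after its values were seen) mark neural progenitors. The Dnmt3bCI/CI embryos were at 4.21 to 11.2 FPKM for Sox3, and their difference from Dnmt3b+/+ was −1.19 with an adjusted p of 0.617.

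All 20 pan-neuronal genes were below 0 in Dnmt3b-/- against Dnmt3b+/+, with a median of −0.58, and limma called 0 of them, with 6 lower and 0 higher at an unadjusted p under 0.05. Of all genes, 25.4% were lower and 14.6% higher at that threshold. Mapt differed most (−1.28, SE 0.45, adjusted p = 0.0679). Without Dnmt3b-/- embryo 1, 7 of the 20 were called lower and the median was −0.91. Without Dnmt3b+/+ embryo 2, 0 were called, 0 had an unadjusted p under 0.05 and the median was −0.35. Their summed level was 414 to 806 FPKM in Dnmt3b+/+, 309 to 662 FPKM in Dnmt3b-/- and 546 to 641 FPKM in Dnmt3bCI/CI, and the groups overlapped.

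**Figure D4:**
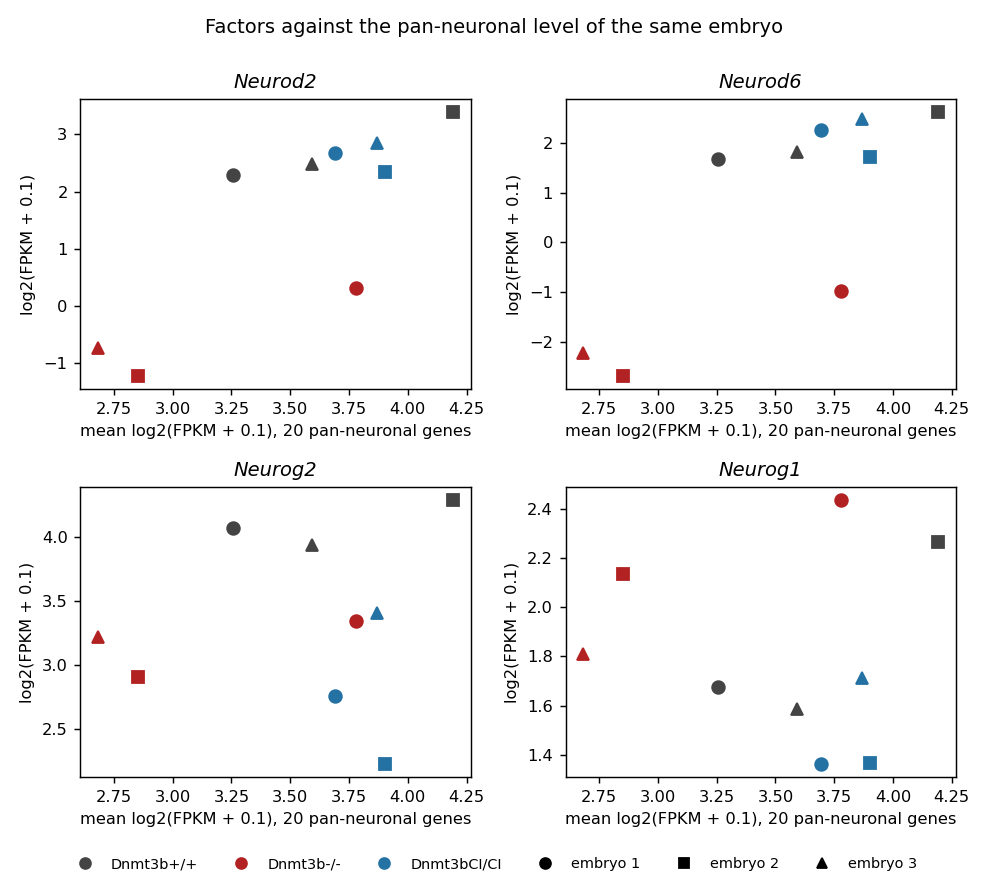
log2(FPKM + 0.1) of Neurod2, Neurod6, Neurog2 and Neurog1 (vertical axes) against the mean log2(FPKM + 0.1) of 20 pan-neuronal genes in the same embryo (horizontal axes), with color for genotype and shape for embryo number. Dnmt3b-/- embryo 1 has a pan-neuronal mean of 3.78, within the range of 3.26 to 4.19 of Dnmt3b+/+, and its Neurod2 and Neurod6 lie below those of all 6 embryos of the other genotypes.

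The mean log2 level over the 20 genes was 3.78 in Dnmt3b-/- embryo 1, against 3.26, 4.19 and 3.59 in Dnmt3b+/+, and its Neurod2 was 1.14 FPKM and its Neurod6 0.408 FPKM, each under the lowest Dnmt3b+/+ value of 4.78 and 3.10 FPKM. Taken relative to the pan-neuronal mean of the same embryo, a scale chosen after the data were seen, the log2 differences between Dnmt3b-/- and Dnmt3b+/+ were −2.69 for Neurod2 and −3.43 for Neurod6. On that scale Neurog2 was at −0.37, Neurod1 at 0.30, Neurog1 at 0.86 and Neurod4 at 1.20. This scale adds the same amount to the difference of every factor, and that amount rests on a mean to which Dnmt3b+/+ embryo 2 and Dnmt3b-/- embryo 1 contribute the highest values of their groups.

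Lists of the domains in which the factors act gave 3 of the 5 calls above. Of 12 sensory ganglion genes, 2 were called lower, Runx3 among them, and 4 were lower at the threshold of p alone, including Ntrk3 (−0.96, adjusted p = 0.0304) and Runx1 (−0.77, adjusted p = 0.0089, named after its values were seen). Of 10 telencephalic genes 1 was called, Bcl11b, while Emx1 and Tbr1 differed by −0.88 and −0.87 with adjusted p of 0.534 and 0.525. Slc17a7, a vesicular glutamate transporter named after its values were seen, was lower at the threshold of p alone (−0.73, SE 0.21, adjusted p = 0.0383). In all, 9 of the 10 were below 0, with a median of −0.67, and their summed level was 24.2 to 37.1 FPKM in Dnmt3b-/- against 41.7 to 44.1 FPKM in Dnmt3b+/+, without overlap. In Dnmt3bCI/CI the sum was 28.7, 13.99 and 35.2 FPKM. The part of these genes' domain in the differences of Neurod2, Neurod6 and Neurog2 was not tested. Of 10 motor neuron genes 0 were called, and Nkx6-2, a factor of ventral progenitors, was higher by 0.89 (SE 0.27, adjusted p = 0.0436). Of 5 genes of the Atoh1 lineage and of 6 pancreatic endocrine genes tested, 0 were called, and 0 and 1 had an unadjusted p under 0.05.

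Markers of other tissues moved with genotype too, and their part in the differences of the 9 factors was not tested. Of 6 skeletal muscle genes, 5 were called lower in Dnmt3b-/- and the summed level was 31.2 to 67.9 FPKM against 75.1 to 118 FPKM in Dnmt3b+/+. Of 6 erythroid genes, 2 were called higher, the embryonic globins Hbb-bh1 (3.01, SE 0.48, adjusted p = 0.00418) and Hba-x, with sums of 2211 to 6937 FPKM against 2239 to 2853 FPKM. Of 5 hepatocyte genes 1 was called, Ttr, lower, with sums of 43.8 to 90.6 FPKM against 35.8 to 226 FPKM, and 4 were called lower without Dnmt3b+/+ embryo 2. All 7 p53 targets were higher at an adjusted p under 0.05 and 4 were called, with sums of 111 to 117 FPKM against 62.1 to 64.7 FPKM. Of 5 endothelial genes 0 were called, and 1 was higher at an unadjusted p under 0.05.

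The genes whose log2 levels followed each factor most closely over the 9 embryos were found among those with a mean of at least 1 FPKM, by Pearson's r. Each factor was set against 12795 or 12796 such genes. With so many candidates over 9 embryos, the closest genes can have a high r without any relation to the factor. The embryos form genotype groups and share each library between the genes, so r is a description. The genes were chosen by r over these same embryos. Their likeness to a factor, in level or in order of embryos, is therefore no separate result. Neurod2 and Neurod6 were each other's closest gene (r = 0.997). They were followed by Gfod1 (0.996) and Chd5 (0.995) for Neurod2, and by Enpp2 (0.996) and Lox (0.994) for Neurod6. Chd5, a chromatin remodeler of neurons, was at 1.55 to 2.93 FPKM in Dnmt3b+/+ and 0.218 to 0.576 FPKM in Dnmt3b-/-, whereas Enpp2 was at 3.99 to 4.67 FPKM and 2.28 to 2.69 FPKM.

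Neurog2 was followed most closely by Sp9, a transcription factor of forebrain and limb (r = 0.976), AC123857.1 (0.971) and Hap1 (0.971). Sp9, chosen by its r with Neurog2, was lower in all 6 mutant embryos (1.32 to 2.33 FPKM) than in Dnmt3b+/+ (3.14 to 3.52 FPKM). Olig2 was followed by Six3os1 (0.963), Lhx6 (0.958) and Dlx1as (0.954), of which Lhx6 is a factor of ventral forebrain interneurons. The closest genes were Kdm1a, Irx3 and Ube2q1 for Neurog1 (0.945 to 0.951), Spast, Gm6277 and Gsk3b for Neurod1 (0.966 to 0.978), and AI846148, Gm16010 and Tssk6 for Neurod4 (0.959 to 0.967). They were Robo3, Csnk1d and St3gal3 for Atoh1 (0.927 to 0.930) and Gmcl1, Pi4k2a and Pgpep1 for Neurog3 (0.935 to 0.963), in both cases over few reads of the factor. Robo3, a guidance receptor of commissural axons, was at 5.05, 13.1 and 5.29 FPKM in Dnmt3b+/+ embryos 1 to 3. It was at 14.5, 7.96 and 4.36 FPKM in Dnmt3b-/- and at 7.36, 11.4 and 8.18 FPKM in Dnmt3bCI/CI.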

How the data were processed

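Total RNA from 9 whole embryos was sequenced as paired-end reads, with 3 independent embryos per genotype. The authors aligned trimmed reads with STAR to mm10, quantified genes in SeqMonk and deposited 1 table of FPKM values on the linear scale; strandedness and the annotation release are not given in the sources used here. A gene without reads holds a floor worth 0.9 reads, and reads per factor were worked back from FPKM, the library total and the exon length in GENCODE M21. For Olig2 a length of 2437 bp, not the annotated 2530 bp, gave whole reads. Of 34245 rows, 1 without a gene name was dropped.

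A gene entered the fit when 3 or more of the 9 embryos reached 0.1 FPKM (19397 genes). One limma model (version 3.58.1, R 4.3.3) over all embryos, with a variance trend, was run on the logarithm to base 2 of FPKM plus 0.1, and p-values were adjusted by Benjamini-Hochberg. The study's methods name DESeq2, which was not run because the values are not counts. Folds on this scale understate changes of low genes. The fit was tested on simulated data. Alternatives were pseudocounts of 0.01 and 1 FPKM, other filters, median-of-ratios and quantile scaling, only 2 genotypes, a replicate block and leaving out each embryo.

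The factors, gene lists and alternatives were chosen with earlier results of these data known. Text names all factors, E proteins, antagonists and related bHLH genes as needed, and of each other list up to 4 genes with the largest difference between Dnmt3b-/- and Dnmt3b+/+, plus the 3 closest genes of each factor; other names are marked. Promoter sequences are from RefSeq, matched by symbol for all 9 factors. Tables were handled with python 3.11.15 and pandas 2.3.3. Some genes of the lists enter the counts but are not reported here by name.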

Additional observations from a re-analysis of the deposited data

How the results depend on the processing

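The factors were selected on these embryos, so whether they met the call rule under other settings is not counted here. The log2 difference of Neurod6 between Dnmt3b-/- and Dnmt3b+/+ was −4.74 with a pseudocount of 0.01 FPKM and −2.09 with 1 FPKM, and that of Neurod2 −2.21 with 1 FPKM. With a pseudocount of 1 FPKM the calls fell to 193 (Dnmt3b-/- against Dnmt3b+/+), 8 (Dnmt3bCI/CI against Dnmt3b+/+), 242 (Dnmt3b-/- against Dnmt3bCI/CI) and 1 (neural and pancreatic lists), since it shrinks changes of low genes, and with a filter of 1 FPKM to 484 and 597 in both Dnmt3b-/- comparisons, since fewer genes were tested. That filter removed Neurod4, Neurog3 and Atoh1. The main counts were 863 (208 higher, 655 lower), 25, 1051 and 5. Quantile normalization gave 272 higher and 392 lower, and 330 and 495 against Dnmt3bCI/CI in place of 213 and 838. Calls in these lists numbered 2 without a filter and 3 with only the genotypes compared, and the cause was not tested. The replicate numbers do not pair the embryos (mean correlation −0.0865 for equal numbers, 0.0478 for others). With the replicate number as a block there were 738, 17, 926 and 2 calls.

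Leaving out 1 embryo gave 587 to 1400, 18 to 26, 722 to 1579 and 2 to 19 calls in the same order; the counts of 1400, 1579 and 19 were those without Dnmt3b-/- embryo 1, and calls in the lists fell to 2 without Dnmt3b+/+ embryo 3 or Dnmt3b-/- embryo 2 and to 3 without Dnmt3b-/- embryo 3. Signs turned for 3 factors in each comparison. For Dnmt3bCI/CI against Dnmt3b+/+ the log2 difference ranged from −0.31 to 0.24 for Neurod2, from −0.064 to 0.41 for Neurod6 and from −0.032 to 0.26 for Neurod4. For Dnmt3b-/- against Dnmt3b+/+ it ranged from −0.12 to 0.84 for Atoh1, from −0.20 to 0.64 for Neurog3 and from −0.26 to 0.62 for Olig2, and against Dnmt3bCI/CI from −0.44 to 0.37 for Atoh1, from −0.58 to 0.27 for Neurog3 and from −0.26 to 0.015 for Neurod1. Depth limits Neurog3, Atoh1 and, in Dnmt3b-/-, Neurod6, and 3 embryos per group limit all tests.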
